A study of Mus musculus with 2 samples.

Results

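DNA replication and mitosis genes were examined in cultured mouse primordial germ cells (PGCs), the embryonic precursors of eggs and sperm. The list holds 45 gene symbols, 21 for S phase and 24 for mitosis, and a gene was taken where its symbol stood alone in the expression files of both libraries. All 21 S phase genes and 23 of the 24 mitosis genes were found, so 44 genes were described out of 23314 symbols present in both files. Foxm1, the remaining mitosis gene, was listed only under a joint name with its neighbour 4933413G19Rik. That joint locus was expressed at 18.9 FPKM in the control library (95% interval 17.8 to 20.1) and at 18.8 FPKM in the Klf9-OE library (17.8 to 19.8), and it was not counted. FPKM counts fragments relative to exon length and to all mapped reads, and equals RPKM for single-end reads.

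The PGCs came from genital ridges of both male and female E13.5 embryos, from MCH females mated with Oct4-deltaPE-GFP males, and were collected by their GFP signal. They were infected at an MOI of 5 with a CSII-EF lentivirus that expressed Klf9 (Klf9-OE) or with a control lentivirus, and were cultured for 1 day. The GEO labels describe the medium as containing bFGF and the study's own text as lacking it, which applies to both groups. RNA-seq gave 1 library per group, so no difference has a replicate check and no test between the groups could be made.

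Before S phase, Orc, Cdc6 and Cdt1 load the ring of the Mcm2 to Mcm7 proteins onto replication origins, and Cdc45 and the GINS proteins then turn it into the active helicase. E2f transcription factors and cyclin E drive this step, while cyclin A and B with Cdk1, the Polo and Aurora kinases, spindle motors and centromere proteins carry out mitosis, and many of their genes are transcribed late in the cycle through CHR and CCAAT elements. At the sampled stage, male germ cells are leaving the mitotic cycle for arrest and female germ cells are entering meiosis.

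Each value below is the Cufflinks estimate with the 95% interval deposited beside it. The interval covers the error of estimation within a library and not the difference between cultures. A gene was counted as higher or lower in Klf9-OE PGCs where its intervals in the libraries did not meet. For Klf9 itself the control library gave 2.27 FPKM (1.97 to 2.57) and the Klf9-OE library 80.8 FPKM (77.0 to 84.5). This 35.6-fold difference is in the direction of the labels. The files give no read totals. Read numbers were implied from the interval width for the 14 genes listed under their own symbol in both files. They were 451 to 6984 in the control library and 516 to 8617 in the Klf9-OE library. These would be read counts only if the intervals held counting error alone. As described below, small implied numbers were mostly even in the Klf9-OE library and not in the control library. The implied reads are therefore not compared between the libraries. The distance from the value to its bound was 2.10% to 18.8% of the value for S phase genes and 2.78% to 9.42% for mitosis genes. The widest interval relative to its value was that of E2f2.

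The promoters of 36 of the 45 genes (17 S phase and 19 mitosis) were found in RefSeq's GRCm38.p6 sequences, as windows of 250 bases before and 50 bases after the start of transcription. The genes not matched were Mcm4, Gins1, Gins2, Ccne2, Ccna2, Aurkb, Kif20a, Tpx2 and Foxm1. Shown are the 250 bases before the start for the S phase and mitosis genes with the largest differences between the libraries among those whose intervals were apart, that had 1 promoter in the table, and whose start lay within 100 bases of the start in a deposited file. They let the elements named above be seen in genes that the values below turn on. Capitals mark the matches, on either strand, to the E2F letters TTTGGCGC, TTTCGCGC, TTTCCCGC or TTTGCCGC, the CHR letters TTTGAA or TTCGAA, and the CCAAT box. Rrm2 lies at chr12:24708004-24708253 on the plus strand, Mcm5 at chr8:75109259-75109508 on the plus strand, Plk1 at chr7:122159185-122159434 on the plus strand, Cenpa at chr5:30666636-30666885 on the plus strand, Mki67 at chr7:135716380-135716629 on the minus strand and Top2a at chr11:99024190-99024439 on the minus strand.
Rrm2: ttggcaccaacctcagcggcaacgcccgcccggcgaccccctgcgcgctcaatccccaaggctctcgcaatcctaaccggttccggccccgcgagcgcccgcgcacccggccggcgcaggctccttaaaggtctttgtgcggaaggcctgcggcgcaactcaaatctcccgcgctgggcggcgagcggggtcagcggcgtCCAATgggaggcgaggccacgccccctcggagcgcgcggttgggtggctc
Mcm5: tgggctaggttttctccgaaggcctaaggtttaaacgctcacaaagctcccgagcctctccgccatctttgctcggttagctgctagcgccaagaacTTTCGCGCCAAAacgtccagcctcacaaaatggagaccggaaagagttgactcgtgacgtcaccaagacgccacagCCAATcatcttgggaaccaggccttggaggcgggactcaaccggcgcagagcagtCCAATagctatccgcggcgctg
Plk1: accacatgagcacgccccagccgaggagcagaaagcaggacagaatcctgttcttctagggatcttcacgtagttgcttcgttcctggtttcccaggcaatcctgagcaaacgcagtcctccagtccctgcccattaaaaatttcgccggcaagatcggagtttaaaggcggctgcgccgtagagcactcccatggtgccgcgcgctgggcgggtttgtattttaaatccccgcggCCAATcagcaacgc
Cenpa: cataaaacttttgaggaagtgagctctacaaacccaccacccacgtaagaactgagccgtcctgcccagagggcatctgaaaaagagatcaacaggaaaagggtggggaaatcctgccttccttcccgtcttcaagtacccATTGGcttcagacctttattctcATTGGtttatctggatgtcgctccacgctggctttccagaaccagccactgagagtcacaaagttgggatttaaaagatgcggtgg
Mki67: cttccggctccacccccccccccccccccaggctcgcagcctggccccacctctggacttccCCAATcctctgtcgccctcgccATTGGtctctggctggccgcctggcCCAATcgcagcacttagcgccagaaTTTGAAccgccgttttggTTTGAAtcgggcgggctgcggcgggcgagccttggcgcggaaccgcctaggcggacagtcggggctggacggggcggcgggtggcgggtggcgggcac
Top2a: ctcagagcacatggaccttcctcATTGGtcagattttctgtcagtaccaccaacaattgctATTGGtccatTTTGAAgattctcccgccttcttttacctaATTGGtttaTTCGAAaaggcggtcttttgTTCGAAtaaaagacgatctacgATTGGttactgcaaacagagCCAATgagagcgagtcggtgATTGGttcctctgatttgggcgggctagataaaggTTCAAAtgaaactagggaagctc

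Mcm5 held a pair of overlapping E2F matches that began 153 and 149 bases before the start, followed by CCAAT boxes 77 and 22 bases before it. Top2a held 4 CHR matches and 6 CCAAT boxes in its 250 bases, and Mki67 held 2 CHR matches and 3 CCAAT boxes. Rrm2, Plk1 and Cenpa held CCAAT boxes but no CHR or E2F match in the bases shown; Plk1 and Cenpa had a CHR match in the 50 bases after the start.

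Over the whole windows of 300 bases, an E2F match was present in 7 of 17 S phase genes (Mcm3, Mcm5, Mcm6, Mcm7, Cdc6, Cdt1 and E2f2) and in 1 of 19 mitosis genes (Cdk1). The share among all 27025 genes with a promoter was 2.61%, and it was 4.77% among the 8996 of them with a mean FPKM of at least 1. A CHR match was present in 5 of 17 S phase genes and 14 of 19 mitosis genes, beside 21.7% and 15.9% of those backgrounds. CCAAT boxes stood in 12 of 17 and 16 of 19 genes (41.1% and 44.2%), and GC boxes (GGGCGG), the kind of element Klf factors are known to bind, in 14 of 17 and 17 of 19 (38.2% and 69.8%). Matches of different elements can overlap, and a match is a description of the letters, not of binding.

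In control PGCs the S phase genes were expressed at all levels from 1.29 FPKM (E2f2) to 167 FPKM (Pcna), with a median of 29.3, and the mitosis genes from 9.47 FPKM (Aurkb) to 145 FPKM (Top2a), with a median of 39.7. The same genes stood at the ends in Klf9-OE PGCs, with 1.41 FPKM for E2f2, 188 for Pcna, 13.6 for Aurkb and 176 for Top2a. FPKM is scaled by length, so these levels can be compared between genes, but only roughly. Some loci were assembled by Cufflinks in a library and others were listed by gene symbol. Among S phase genes ordered by level, the intervals of 8 of 20 neighbouring pairs overlapped in control PGCs and those of 7 of 20 in Klf9-OE PGCs. Among mitosis genes 14 of 22 and 13 of 22 did, so the order in the middle of that set is not resolved.

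**Figure D1:**
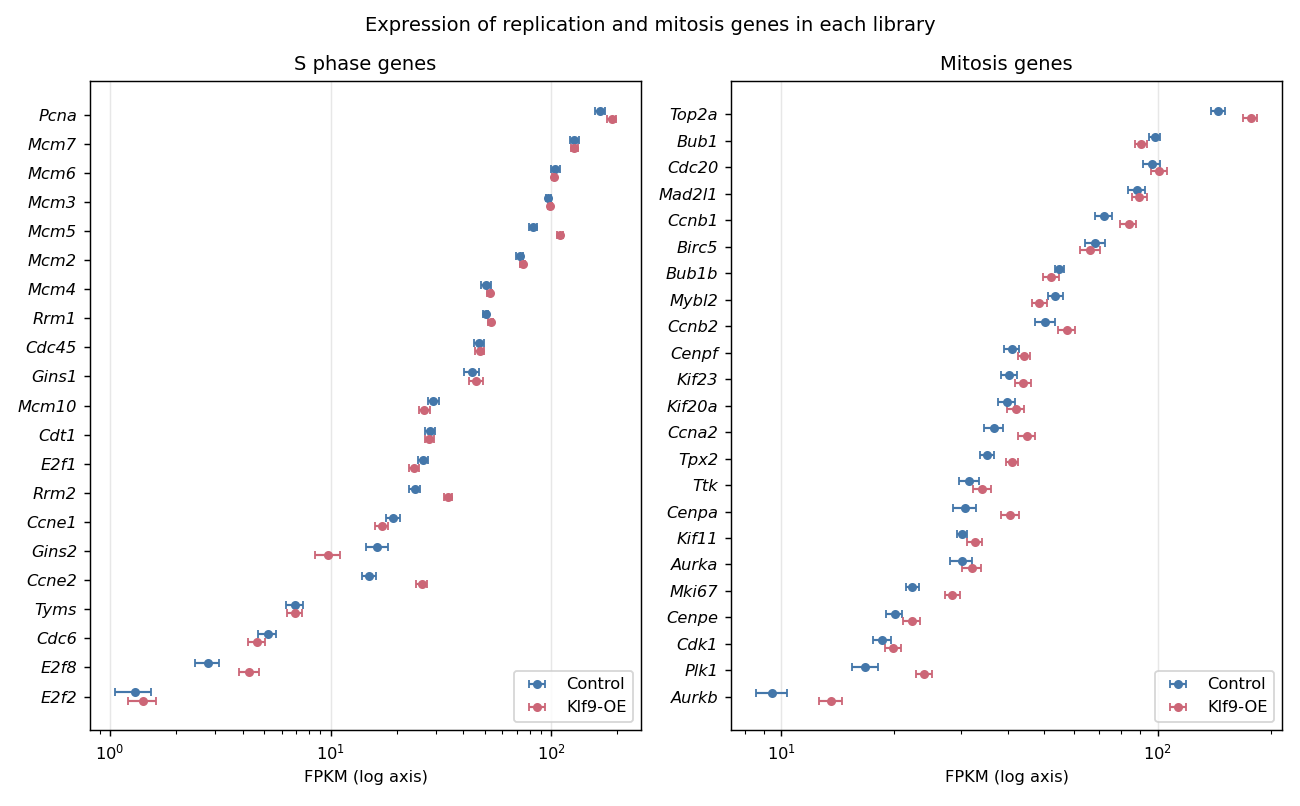
Expression of each S phase gene (left) and mitosis gene (right) in FPKM on a log axis, ordered by the control value. Points are the single Control and Klf9-OE libraries and bars their 95% intervals; most pairs overlap or nearly so, while Gins2, Ccne2, Rrm2, Mcm5 and Plk1 lie clearly apart.

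Of the 21 S phase genes, 6 (28.6%) were higher in Klf9-OE PGCs (Mcm5, Pcna, Rrm1, Rrm2, Ccne2 and E2f8), 1 was lower (Gins2), and 14 had overlapping intervals. Among all 12244 genes with a mean FPKM of at least 1, 14.5% were higher and 20.1% were lower by the same rule. The median difference of the S phase genes was 0.03 in log2(FPKM + 0.1), Klf9-OE minus control, and that of all genes was -0.03, with quartiles of -0.20 and 0.14. The S phase median was 0.06 with the libraries scaled to the same upper quartile or to a median log2 ratio of 0, and 0.09 with the same sum, shifts that apply to all genes alike. This scale slightly understates the differences of the lowest genes. At least 1.5-fold, 2 S phase genes were higher (Ccne2 and E2f8) and 1 was lower (Gins2), beside 6.67% and 7.79% of all genes. In bulk RNA, fewer cells in a phase of the cycle and less RNA per cell cannot be told apart.

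The ring of the replicative helicase was expressed at nearly the same level in both libraries, except for Mcm5. Mcm7, the subunit with the highest level, had an FPKM of 127 (121 to 133) in control and 128 (123 to 133) in Klf9-OE PGCs. Mcm6 had 105 (99.7 to 110) and 103 (101 to 106). The values of Mcm3 were 97.2 and 99.3, those of Mcm2 72.1 and 74.4, and those of Mcm4 50.9 and 52.9. The ratio of Klf9-OE to control thus lay between 0.988 and 1.04 for these 5 subunits, and all of their intervals overlapped. With the libraries scaled to the same sum, Mcm2, Mcm3 and Mcm4 were counted as higher. Mcm5 had 83.2 (79.8 to 86.5) in control and 110 (107 to 114) in Klf9-OE PGCs, a ratio of 1.33 with an interval of 1.26 to 1.40 from both errors. Its log2 difference was 0.41, and its level stood below those of Mcm3 and Mcm6 in control PGCs and above both in Klf9-OE PGCs.

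The genes that load and start the helicase did not share a direction. Cdc6, which recruits the ring to origins, had an FPKM of 5.18 in control and 4.65 in Klf9-OE PGCs, and Cdt1, its partner in loading, had 28.4 and 28.1. Mcm10, which acts when the helicase is activated, had 29.3 and 26.7. Their intervals overlapped, and so did those of Cdc45, with 47.3 and 47.5. The GINS complex gave unlike values for its measured subunits. Gins1 had 43.9 (40.5 to 47.4) and 45.8 (42.4 to 49.2), whereas Gins2 had 16.3 (14.5 to 18.2) in control and 9.76 (8.50 to 11.0) in Klf9-OE PGCs. Gins2 was thus 1.67-fold lower, a log2 difference of -0.74, and was the only one of the 44 genes at least 1.5-fold lower.

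Gins2 stood in the control file under a locus that Cufflinks had assembled in that library and in the Klf9-OE file under its gene symbol. Over all genes with a mean FPKM of at least 1, 28.6% of the 2016 genes listed in that way were lower and 7.29% were higher, against 16.5% and 12.9% of the 3169 genes listed by symbol in both files. Of the 5912 genes assembled in both files, 20.8% were lower and 15.9% were higher. The part of this difference in listing in the value of Gins2 was not tested. E2f8 was listed the opposite way, as a symbol in the control file and as an assembled locus in the Klf9-OE file, where 24.6% of 1147 genes were higher and 11.9% were lower, and its value was likewise not tested for this. Among the 14 replication and mitosis genes listed by symbol in both files, 6 were higher (Rrm1, Rrm2, Ccna2, Plk1, Aurkb and Cenpa) and none was lower.

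**Figure D2:**
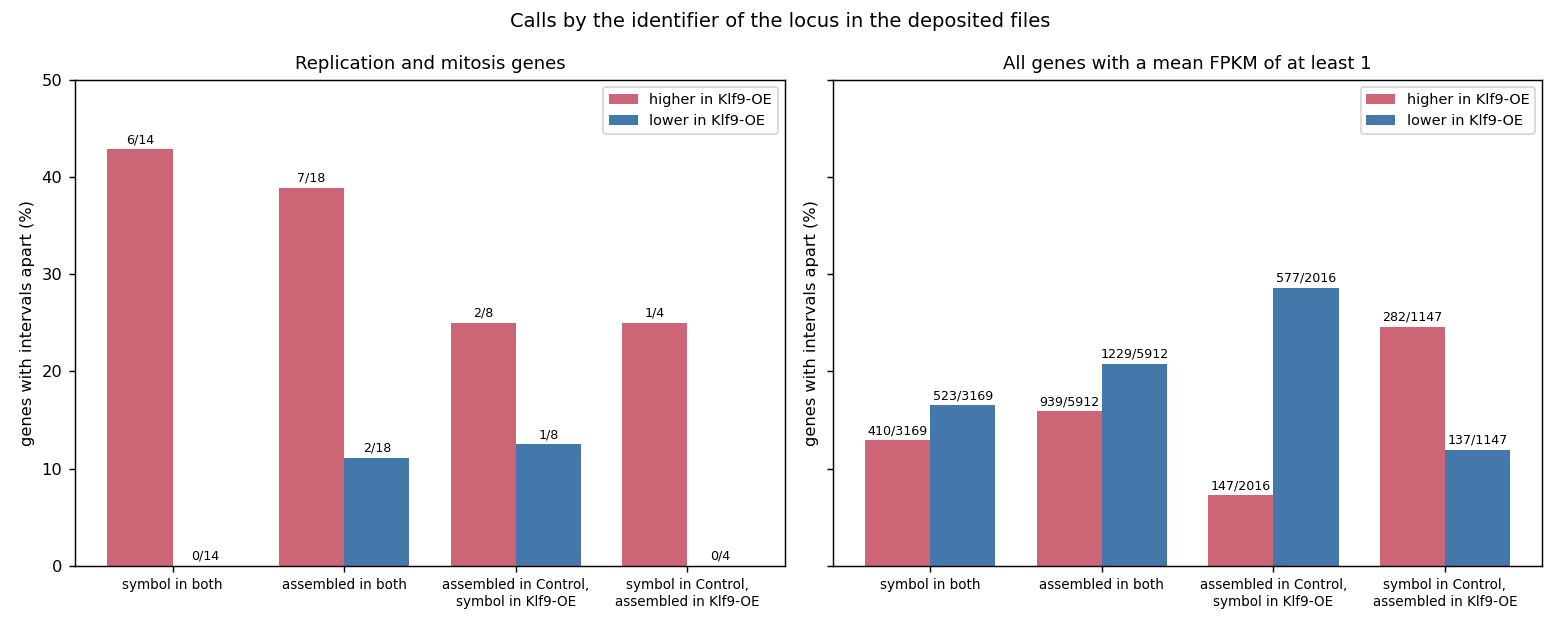
Share of genes (%) whose intervals were apart, higher (red) or lower (blue) in Klf9-OE PGCs, by how the locus was listed in each file; numbers over the bars are genes counted of genes listed. Left, the 44 replication and mitosis genes, with 6 of 14 higher where both files used the symbol; right, all 12244 genes, with 28.6% lower among those assembled only in the control file.

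Of the 4 genes of the clamp and of nucleotide supply, 3 were higher. Pcna, the sliding clamp of DNA polymerases and the S phase gene with the highest level, had 167 (159 to 176) in control and 188 (179 to 197) in Klf9-OE PGCs, a ratio of 1.13. Rrm2, the small subunit of ribonucleotide reductase whose supply is limited to S phase, had 24.1 (22.8 to 25.4) and 34.1 (32.6 to 35.5), a ratio of 1.41 and a log2 difference of 0.50. Its partner Rrm1, the large subunit, had 50.6 (49.2 to 52.0) and 53.3 (52.0 to 54.6), a ratio of 1.05, and its intervals met when the Klf9-OE bounds were widened. Tyms, which makes thymidylate, had 6.89 and 6.91. The ratios of the enzyme's subunits had intervals that did not meet, 1.32 to 1.52 for Rrm2 and 1.02 to 1.09 for Rrm1.

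The cyclin E genes, which activate Cdk2 at the start of S phase, differed from each other. Ccne2 had 15.0 (13.9 to 16.05) in control and 25.9 (24.4 to 27.4) in Klf9-OE PGCs, 1.73-fold higher, and this log2 difference of 0.79 was the largest in size of the 44 genes. Ccne1 had 19.2 (17.8 to 20.6) and 17.1 (15.97 to 18.1), so its intervals overlapped. Ccne1 was thus the cyclin E gene with the higher level in control PGCs, and Ccne2 in Klf9-OE PGCs, with intervals apart within each library. Ccne1 was listed in the files as Gins2 was, and Ccne2 as an assembled locus in both. The part of this listing in their order was not tested.

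Of the E2f genes, E2f8 was 1.55-fold higher. This repressor of the family, itself made in S phase, had 2.77 (2.43 to 3.11) in control and 4.29 (3.84 to 4.73) in Klf9-OE PGCs. The activators E2f1, with 26.3 (24.8 to 27.7) and 23.9 (22.6 to 25.1), and E2f2, with 1.29 (1.05 to 1.53) and 1.41 (1.202 to 1.61), had overlapping intervals. E2f1 had the highest level of these 3 genes in both libraries.

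Of the 23 mitosis genes, 10 (43.5%) were higher in Klf9-OE PGCs (Ccna2, Ccnb1, Ccnb2, Plk1, Aurkb, Top2a, Mki67, Tpx2, Cenpa and Cenpe), 2 were lower (Bub1 and Mybl2), and 11 had overlapping intervals, beside the 14.5% higher and 20.1% lower of all genes. Their median log2 difference was 0.11, and 19 of the 23 values were above 0. None of them reached 1.5-fold in either direction, beside 6.67% higher and 7.79% lower of all genes. All 23 had a mean FPKM of at least 10, and at that level the shares were 3.23% and 4.84%. The 10 to 2 split became 13 to 0 with the libraries scaled to the same upper quartile or to a median log2 ratio of 0, and 15 to 0 with the same sum. Each scaling raised all Klf9-OE values alike, so it can only add higher calls and remove lower ones. The shares of all genes were not counted under the scalings, so these splits have no background.

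**Figure D3:**
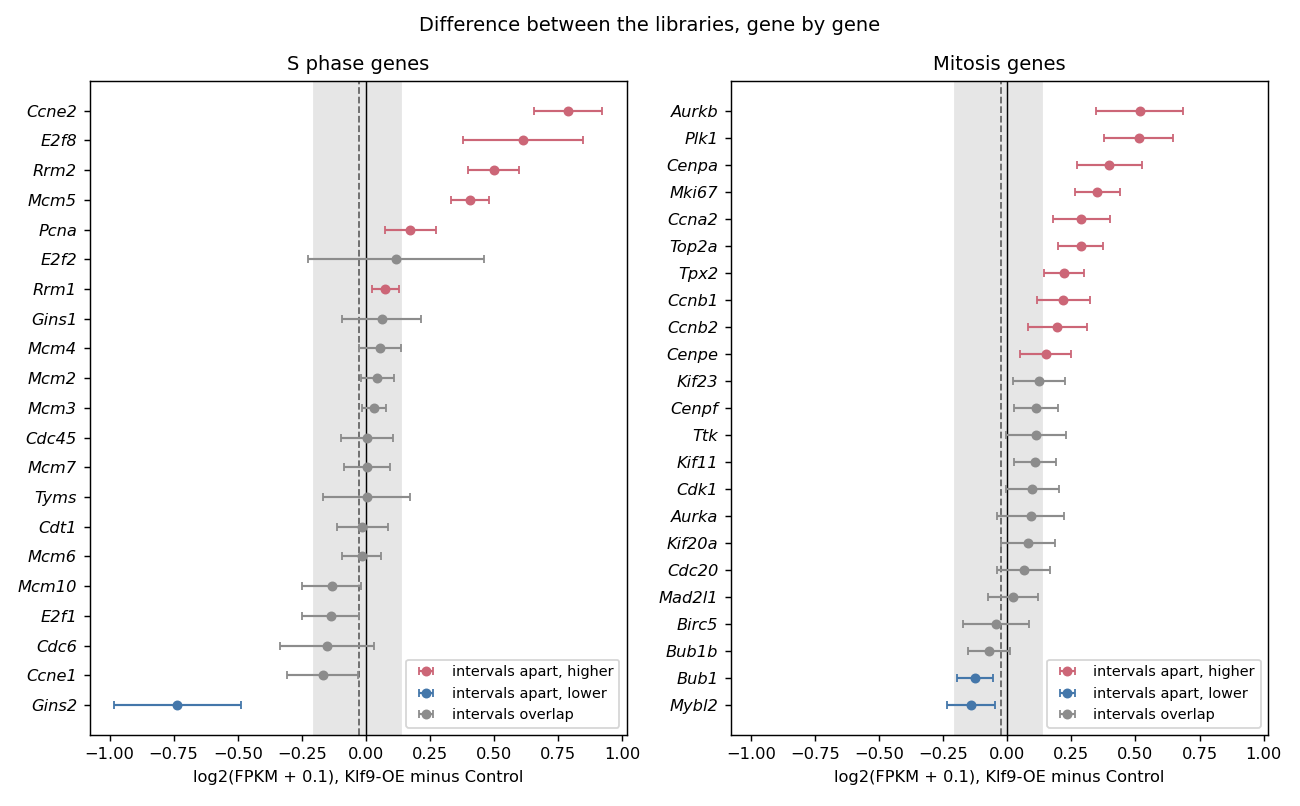
Difference of log2(FPKM + 0.1), Klf9-OE minus Control, for each S phase gene (left) and mitosis gene (right), with bars for the 95% interval from both libraries' errors; the grey band and dashed line are the quartiles and the median of all 12244 genes. Ccne2 and Gins2 stand at the ends of the S phase genes, while mitosis genes lie between -0.14 and 0.52.

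Among the mitotic cyclins and their partners, Ccna2, which acts in S phase and at mitotic entry, had 36.7 (34.6 to 38.8) in control and 44.8 (42.5 to 47.2) in Klf9-OE PGCs, a ratio of 1.22. Ccnb1, the main partner of Cdk1, had 71.9 (68.2 to 75.6) and 83.7 (79.6 to 87.8), a ratio of 1.16. Ccnb2 had 50.2 (47.1 to 53.3) and 57.5 (54.5 to 60.5), a ratio of 1.14. All 3 cyclins were therefore higher by 1.14 to 1.22 times. Cdk1, the kinase that they activate, had 18.5 (17.5 to 19.6) and 19.9 (18.9 to 20.8), and Cdc20, which directs the destruction of cyclin B, had 96.4 (91.4 to 101) and 101 (95.8 to 106). Their intervals overlapped.

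The mitotic kinases Plk1 and Aurkb gave the largest differences among the mitosis genes. Plk1, which drives centrosome maturation and spindle assembly, had 16.7 (15.4 to 18.1) in control and 23.9 (22.7 to 25.1) in Klf9-OE PGCs. Its ratio of 1.43 had an interval of 1.30 to 1.57. Aurkb, the kinase of the chromosomal passenger complex, had 9.47 (8.58 to 10.4) and 13.6 (12.6 to 14.5), a ratio of 1.43 with an interval of 1.27 to 1.61. Birc5, the survivin subunit of the Aurkb complex, had 68.3 and 66.3, and Aurka, the spindle pole kinase, had 30.1 and 32.1, and the intervals of both overlapped. Incenp, the scaffold of the Aurkb complex and not among the 44 genes, was higher, with 41.7 (39.5 to 44.0) and 48.3 (45.9 to 50.7). Cdca8, also of that complex and not among the 44 genes, had 109 (0 to 13863.5) and 112 (0 to 11384.3), which overlapped. The ratio of Birc5 had an interval of 0.888 to 1.06, which did not meet that of Aurkb.

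None of the 4 spindle checkpoint genes among the 44 (Bub1, Bub1b, Mad2l1 and Ttk) was counted as higher, beside 14.5% of all genes. With only 4 genes, this count does not set them apart from the other mitosis genes. Bub1, the checkpoint kinase next below Top2a in control level among the mitosis genes, was lower, with 98.4 (95.02 to 102) in control and 90.2 (86.9 to 93.4) in Klf9-OE PGCs and a log2 difference of -0.13. Bub1b had 54.8 and 52.2, Mad2l1 had 88.0 and 89.4, and Ttk, the kinase at the top of the checkpoint, had 31.6 and 34.2. These 3 genes had overlapping intervals, and Bub1 overlapped too once the libraries were scaled to the same upper quartile, sum or median.

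Of the genes of spindle and chromosome structure, 3 of 6 were higher. Top2a, the topoisomerase that untangles chromosomes, had 145 (138 to 151) in control and 176 (169 to 184) in Klf9-OE PGCs, a ratio of 1.22. Mki67, the proliferation antigen that coats mitotic chromosomes, had 22.3 (21.4 to 23.2) and 28.5 (27.2 to 29.8), a ratio of 1.28. Tpx2, which activates Aurka on the spindle, had 35.2 (33.8 to 36.7) and 41.1 (39.6 to 42.6), a ratio of 1.17. The motors Kif11 (30.3 and 32.6), Kif20a (39.7 and 42.0) and Kif23 (40.3 and 43.9) were each above the control value, with overlapping intervals.

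Of the centromere proteins, Cenpa, the histone that marks the centromere, had 30.8 (28.7 to 32.8) in control and 40.6 (38.3 to 42.9) in Klf9-OE PGCs, a ratio of 1.32. Cenpe, the kinetochore motor, had 20.0 (19.0 to 21.0) and 22.2 (21.1 to 23.3), a ratio of 1.11. Cenpf had 40.9 (39.1 to 42.8) and 44.2 (42.5 to 45.9), which overlapped. Mybl2, the B-Myb factor that works with the MuvB core on late cell cycle genes, was lower, with 53.5 (51.1 to 56.0) and 48.5 (46.3 to 50.7). Mybl2, Rrm1, Ccnb2 and Cenpe no longer had intervals apart when the Klf9-OE intervals were widened by the square root of 2, and Mybl2 overlapped also under each other scaling of the libraries.

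The implied read number was even for 88.4% of 1793 genes with 1 to 9 reads in the Klf9-OE library and for 36.3% of 2157 genes in the control library, which is why that wider interval was tried. With it, 5 S phase genes were higher and 1 was lower, and 8 mitosis genes were higher and 1 was lower, beside 11.6% and 16.8% of all genes. At a mean FPKM of at least 10, where most of these genes lie, 14.2% of 6742 genes were higher and 23.3% were lower with the intervals as deposited. The counts of higher mitosis genes thus stood above each of these background shares.

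Differences were set beside the promoter matches. The 14 mitosis genes with a CHR match had a median log2 difference of 0.11, with 5 higher and 1 lower. The 5 without one had a median of 0.02, with 2 higher and 1 lower. All genes with a mean FPKM of at least 1 had a median of -0.02 with a CHR match, where 227 of 1426 were higher and 271 lower, and -0.03 without one. The 7 S phase genes with an E2F match had a median of 0.0032 and 1 higher gene (Mcm5), and the 10 without one had 0.024 and 4 higher genes. Of all 429 genes with an E2F match and a mean FPKM of at least 1, 65 were higher and 81 lower. The 12 S phase genes with a CCAAT box had a median of 0.06 and 5 higher genes. The 5 without one had -0.14 and 0 higher genes. Mitosis genes with the box (16) had 0.12, with 7 higher and 1 lower. Those without it (3) had -0.04, with 0 higher and 1 lower. Among all 3978 genes with the box and that mean FPKM, 571 were higher and 820 lower. The 14 S phase genes with a GC box had a median of 0.0036 and 3 higher genes, and the 3 without one had 0.076 and 2. Mitosis genes with a GC box (17) had 0.11, with 7 higher and 2 lower. Those without it (2) had 0.01, with 0 higher and 0 lower. Among all 6279 genes with a GC box and that mean FPKM, 901 were higher and 1371 lower. No difference between genes with and without a match was tested.

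Other genes of the same pathways were taken from lists of their roles. Of 51 other replication genes measured, 6 were higher and 5 were lower (4 and 3 with widened Klf9-OE intervals), with a median log2 difference of 0.01. The share over all genes was 14.5% higher and 20.1% lower, so neither count stood above it. The largest differences were those of Orc3, a subunit of the origin recognition complex, with 17.3 (16.4 to 18.1) and 42.2 (39.5 to 44.8), of Pole2, a subunit of polymerase epsilon, with 6.58 (5.72 to 7.43) and 4.47 (0 to 13.8), and of Chaf1b, a subunit of the chromatin assembly factor, with 20.3 (19.0 to 21.6) and 15.1 (14.1 to 16.2). Of 62 other mitosis genes measured, 15 were higher and 9 were lower (13 and 6 when widened), with a median of 0.05 and beside the same 14.5% and 20.1% of all genes. The largest differences there were those of kinetochore genes, in both directions. Zwint had 94.7 (90.1 to 99.2) in control and 203 (196 to 211) in Klf9-OE PGCs, whereas Cenpk had 27.7 (25.4 to 30.0) and 14.7 (13.4 to 16.001). Cenpm had 39.3 (36.0 to 42.5) and 23.4 (21.4 to 25.3). Orc3, Zwint, Cenpk and Cenpm were listed as assembled loci in both files.

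Upstream of S phase, 3 of 8 genes of G1 were higher (Ccnd2, Cdc25a and Mycn) and 2 were lower (Ccnd3 and Cdk6), beside 14.5% and 20.1% of all genes. Cdc25a and Mycn overlapped with the widened intervals. The D cyclins, which start the cycle with Cdk4 and Cdk6, were not alike. Ccnd2 had 5.66 (5.20 to 6.11) in control and 9.32 (8.79 to 9.85) in Klf9-OE PGCs, and Ccnd3 had 30.8 (28.9 to 32.7) and 19.3 (17.9 to 20.8). Ccnd1 was listed only under a joint name with Mir3962, with 3.35 (0 to 7.002) and 7.71 (4.66 to 10.7). Cdk6 had 4.45 (3.36 to 5.55) and 2.78 (2.40 to 3.17), whereas Cdk4, at 102 and 106, overlapped. Cdk6 was listed in the files as Gins2 was, and Ccnd2 as E2f8 was.

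Of 7 Cdk inhibitors, which hold cells back from the cycle, 2 were higher and 1 was lower, beside the same shares of all genes, and Cdkn1a overlapped when widened. Cdkn1a had 12.4 (11.3 to 13.6) and 14.9 (13.7 to 16.1), Cdkn1c had 16.1 (14.7 to 17.6) and 21.2 (19.6 to 22.8), and Cdkn2d had 32.3 (29.8 to 34.7) and 25.9 (23.9 to 27.9). Of 16 Rb, E2f and DREAM factors, which repress or activate these promoters, 2 were higher and none was lower, with intervals as deposited and widened. Of all genes, 14.5% were higher and 20.1% lower as deposited, and 11.6% and 16.8% when widened. The 2 higher factors were Rbl1 (p107), with 6.31 (5.71 to 6.92) and 9.26 (8.50 to 10.02), and Rbbp4, with 165 (158 to 172) and 194 (186 to 202). Lin37, with a difference between those of Rbl1 and Rbbp4 in size, had 18.6 (16.6 to 20.6) and 15.4 (13.8 to 17.0), which overlapped. In all, 14 genes of this list had overlapping intervals, among them E2f4 and Rb1, with E2f4 at 23.3 and 23.1 and Rb1 at 18.5 and 17.5.

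**Figure D4:**
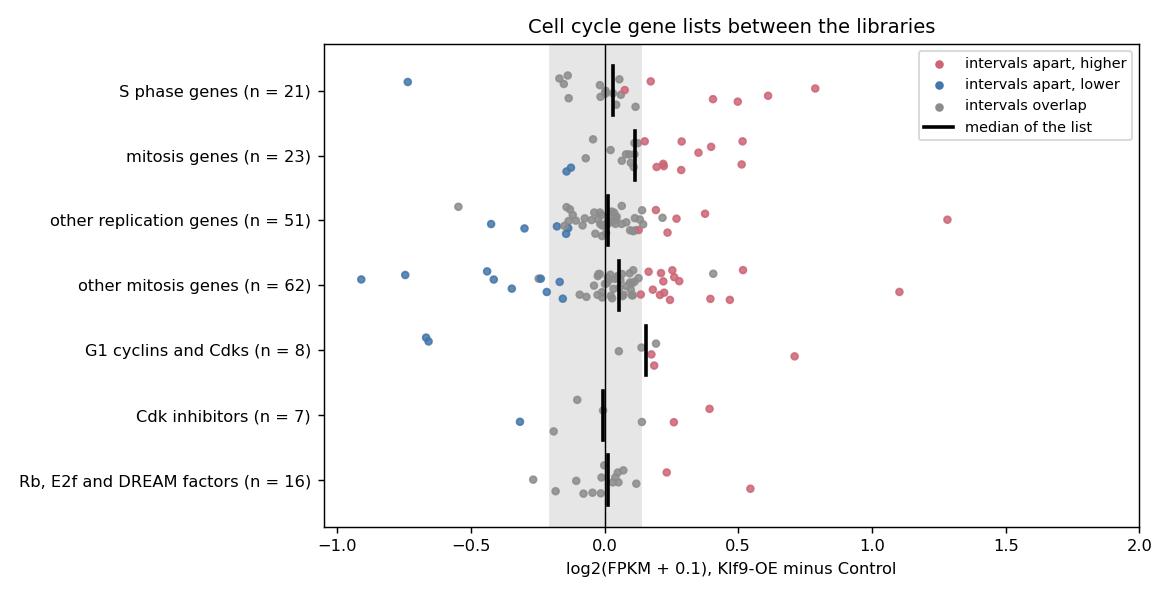
Difference of log2(FPKM + 0.1), Klf9-OE minus Control, for the genes of 7 cell cycle lists; each point is a gene, coloured by whether the intervals were apart, black bars are list medians and the grey band holds the quartiles of all genes. List medians lie between -0.01 and 0.16, and single genes such as Orc3, Zwint and Cenpk lie far outside the band.

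The cells were of germ line character in both libraries. The 13 germ cell markers summed to an FPKM of 1914 in control and 1671 in Klf9-OE PGCs, with 3 higher (Sox2, Utf1 and Dazl), 9 lower and Ddx4 overlapping at 300 and 292. Of all genes with a mean FPKM of at least 1, 14.5% were higher and 20.1% were lower. With the widened Klf9-OE intervals Dazl overlapped, and 9 markers were still lower. The lower ones included Nanog (11.7 and 6.30), Dppa3 (294 and 179), Nanos3 (24.6 and 17.5) and Pou5f1 (387 and 277). Markers of gonad somatic cells (13 of 14 found) summed to 25.1 and 34.4. Star was listed at 0 in control and Cyp17a1 at 0 in Klf9-OE PGCs. Of the 8 with a mean FPKM of at least 1, 5 were higher and 1 (Sox9, 2.04 and 1.09) was lower (4 and 1 when widened). Markers of endothelium (5 of 5) summed to 19.9 and 30.2, of which Pecam1 made 16.8 and 24.2. Pecam1 and Cdh5 were higher, Tek (0.735 and 0.439) was lower, and Kdr and Emcn overlapped. Tek overlapped too when widened. In neither list did all genes share a direction. Macrophage markers (6 of 6) summed to 6.64 and 6.57. Csf1r (0.307 and 1.18) was higher and Lyz2 (1.00 and 0) was lower, also when widened, and the others overlapped. Both genes had a mean FPKM below 1. Emcn of the endothelium and Lyz2 of macrophages were listed at 0 in Klf9-OE PGCs. Genes of meiotic entry (9 of 10) summed to 1442 and 1414, of which Sycp3 made 541 and 557. Dmc1 (92.4 and 48.3), Stra8 (120 and 79.4) and Rec8 (37.0 and 30.04) were lower, and Spo11 (16.03 and 23.7) and Syce1 (106 and 121) were higher. Genes of male germ cell arrest (5 of 5) summed to 255 and 179. Dnmt3l (80.9 and 38.1), Piwil4 (45.1 and 33.5), Tdrd5 (60.1 and 53.9) and Tdrd9 (64.2 and 49.3) were lower, also when widened. Nanos2 overlapped at 4.85 and 4.68, and none was higher. Xist was higher, with 0.829 (0.739 to 0.920) and 2.05 (1.91 to 2.20), also when widened. Of the Y-linked genes, Eif2s3y had 59.0 and 49.3, Kdm5d 3.72 and 3.20, Ddx3y 3.76 and 4.29 and Uty 4.95 and 5.50, with intervals apart for Eif2s3y alone. The part of these marker differences in the values of replication and mitosis genes was not tested.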

How the data were processed

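RNA-seq of cultured E13.5 PGCs was analysed for 1 control and 1 Klf9-OE library. The authors used TopHat2 and Bowtie to map single-end reads to mm10. The deposited values are the FPKM that Cufflinks estimated for every locus of a library, with a 95% interval. Versions of these tools are not given in the sources used here, and the study's Cuffdiff results were not used. Cufflinks had also assembled transcripts in each library, so 23900 of 30382 loci of the control file and 23944 of 39071 loci of the Klf9-OE file were named. FPKM is normalized by length and mapped reads; the read totals are not known, and no replicate error can be given.

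Where a symbol had several loci, their FPKM and their bounds were added. Differences were taken as log2(FPKM + 0.1), and ratios without a pseudocount. No test was made. Genes were counted where the deposited intervals did not overlap or where the ratio reached 1.5-fold, and the same counts over all genes with a mean FPKM of at least 1 served as background. An interval for a ratio combined both half-widths, each taken as 2 standard errors. Loci whose estimate had failed (1 in the control file and 5 in the Klf9-OE file) were left out. Each of the 44 genes with intervals apart or a 1.5-fold difference was named with its values, as were the 3 S phase and the 3 mitosis genes with the highest mean, and the 3 largest differences of each other cell cycle list (marker lists apart); any further gene named was chosen after its values were seen. The genes and lists were chosen with earlier results of these data known. Promoter sequences are those of RefSeq, and mm10 and GRCm38.p6 share chromosome coordinates.

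The alternatives were wider Klf9-OE intervals, 3 scalings between the libraries, pseudocounts of 0.01 and 1, a mean FPKM of at least 5, and other thresholds of the ratio. The counting was tested on simulated data. A further marker list is not reported here. The software was Python 3.11.15, matplotlib 3.10.9, pandas 2.3.3 and numpy 2.4.6.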

Additional observations from a re-analysis of the deposited data

How the results depend on the processing

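With 1 library per group, no library could be left out, and depth is known only through the intervals. No paired analysis was possible because each group has 1 library. Of the 44 genes, 40 kept their call with the Klf9-OE intervals widened by the square root of 2, and Rrm1, Ccnb2, Cenpe and Mybl2 lost theirs, so that 1 mitosis gene was lower in place of 2. Scaled to the same upper quartile (a log2 shift of 0.03), to the same sum (0.06) or to a median log2 ratio of 0 (0.03), the count of lower mitosis genes was 0 each time. The higher mitosis genes were then 13, 15 and 13, and with the same sum the higher S phase genes were 9. Kif11, Kif23 and Cenpf were added each time, and with the same sum also Cdk1, Ttk, Mcm2, Mcm3 and Mcm4. Each scaling raised the Klf9-OE values of all genes alike, and the shares of all genes were not counted under it. No gene with intervals apart changed direction under these 4 settings. At a lower threshold of the ratio, 4 S phase and 4 mitosis genes were higher; at a ratio of 2, the counts of S phase genes higher and lower were both 0. An alternative chosen after seeing the data kept only genes listed by symbol in both files. It left 2 S phase genes higher and 0 lower, 4 mitosis genes higher and 0 lower, 0 S phase genes at 1.5-fold in either direction, and a median of 0.29 for the mitosis genes. The smaller numbers follow in part from the fewer genes kept, 7 in each set. The pseudocounts and the minimum mean FPKM of 5 moved no median or count by more than 1.5 times, except that the S phase median went from 0.03 to 0.02 with that minimum. With the scalings that median was 0.06 (upper quartile and median) and 0.09 (sum).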
